A study of Mus musculus with 8 samples.

Results

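The numbered Zfp genes are the mouse genes named Zfp followed by a number, most of which encode zinc finger proteins. They were taken from the Agilent array as every probe, control spots aside, whose gene name in the MEF scanner file is Zfp and digits alone, without Zfp42. The rule found 461 of 41174 probes and 239 genes. One gene, Zfp406, had no value free of a spot flag, which left 238 of 27882 genes and 457 probes.

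The series asked, by its title, whether small molecules turn mouse somatic cells into pluripotent stem cells. Total RNA of 4 populations was hybridised to 1-colour Agilent arrays with 1 array per group, and 4 further Affymetrix arrays are not analysed here. The PM2i-iPSC group came from mouse embryonic fibroblasts (MEF) given combinations with purmorphamine, an agonist of the Hedgehog component Smoothened, and 2i/LIF, the medium with MEK and GSK3 inhibitors and the cytokine LIF. The OM2i-iPSC group came from MEF given combinations with an oxysterol and 2i/LIF. The ES group was embryonic stem cells from blastocysts of 129/Ola mice, and the MEF group was fibroblasts from embryos. No transgene, dose, passage, clone number or, for MEF and the iPSC groups, strain is given in the sources used here.

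Most Zfp proteins carry C2H2 fingers, small loops held by a zinc ion between cysteine and histidine pairs, each of which reads a few bases of DNA. Fingers in a row are joined by a conserved linker. Many members also carry a KRAB domain, which recruits the corepressor Trim28 and, through it, the histone methyltransferase Setdb1 and HP1 proteins, and such proteins silence repeats and protect imprinted loci in early embryos. Other members work in RNA decay, ubiquitination or the spindle.

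Each value below is a level, on a log2 scale where 0 is the 75th percentile of the processed signal over all probes of that array. A difference between arrays of 1 means 2-fold, and a gene is represented by its brightest probe. Genes were compared where at least 1 of both arrays was well above background. The detection limit, the lowest level well above background, was -4.59 in PM2i-iPSC and OM2i-iPSC, -5.13 in ES cells and -6.85 in MEF. The MEF array could therefore show low levels that the other arrays could not. A fold is written as "at least" where the lower value was under the detection limit or the higher one saturated. No replicate exists, so no test was made and no difference can be set against a spread between replicates. Probes with several spots on an array, none of which belong to members, had an SD of 0.193 between spots, or 0.272 for a difference. The PM2i-iPSC and ES arrays shared a slide, the OM2i-iPSC array was on another slide, and the MEF array was on a further slide and was read with older software, so that only PM2i-iPSC and ES were compared within a slide, and elsewhere the slide cannot be told apart from the cells.

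Markers of pluripotent cells and fibroblasts followed the labels. Of 8 pluripotency markers, 7 were at least 2-fold higher than in MEF on the PM2i-iPSC array, 7 on the OM2i-iPSC array and 8 on the ES array. Of 10 fibroblast markers, 10 were at least 2-fold lower than in MEF on the PM2i-iPSC array, 9 on the OM2i-iPSC array and 10 on the ES array. Relative to ES cells, neural markers were at least 2-fold higher for 6 of 9 in OM2i-iPSC, with a median log2 difference of 1.25, and for 1 of 8 compared in PM2i-iPSC. Endoderm and trophoblast markers were higher for 3 of 8 in OM2i-iPSC and 0 of 8 in PM2i-iPSC, and blood and endothelial markers for 4 of 8 and 2 of 7 compared. Of all genes, 20.9% were at least 2-fold higher than ES cells in OM2i-iPSC and 14.1% in PM2i-iPSC, so the smaller of these marker counts are near the array. The part of other cell types in the values of the members was not tested.

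Zfp genes were detected more often than genes at large. Well above background were 206 of 238 members in PM2i-iPSC (86.6%), 212 in OM2i-iPSC (89.1%), 217 in ES cells (91.2%) and 218 in MEF (91.6%). The shares of all genes were 65.7%, 68.9%, 68.3% and 73.4% on the same arrays in that order. A gene counts by its brightest probe, and 133 of the 238 members had several probes to choose from. The part of probe number in these shares was not tested, and the detection limits differed between arrays. On all 4 arrays 192 members were above background, and 10 were above it on none. The median level of the 238 members was -0.80 in PM2i-iPSC, -0.79 in OM2i-iPSC, -0.69 in ES cells and -1.18 in MEF.

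As a family the members leaned toward the pluripotent side, with a sign that depended on the scaling. With the detection filter the lean was near that of all genes in both iPSC preparations and somewhat wider in ES cells. In ES cells 92 of 226 members compared (40.7%) were at least 2-fold higher than in MEF, beside 33.7% of all genes, and 31 (13.7%) were lower, beside 22.4%. In PM2i-iPSC 79 of 226 members (35%) were higher than in MEF, beside 33.9% of all genes, and 48 (21.2%) were lower, beside 23.6%. In OM2i-iPSC 89 of 227 members (39.2%) were higher than in MEF, beside 36.8%, and 41 (18.1%) were lower, beside 23.1%. Of these 3 arrays, ES cells had member shares furthest from those of all genes.

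The median log2 difference of the members was 0.38 for PM2i-iPSC, 0.42 for OM2i-iPSC and 0.44 for ES cells after scaling to the 75th percentile, and -0.31, -0.40 and -0.12 in the same order after scaling to the array median. The median of all genes moved likewise, at 0.25, 0.38 and 0.27 with the percentile and -0.36, -0.37 and -0.29 with the array median. Relative to all genes the members lay 0.13 higher in PM2i-iPSC, 0.04 in OM2i-iPSC and 0.17 in ES cells with the percentile, and 0.05, -0.03 and 0.17 with the array median. Without the detection filter they lay below all genes on each of these arrays, at -0.35, -0.48 and -0.15. The higher share in ES cells was then 42.9% of members, beside 44.7% of all genes, and the lower share 13.9%, beside 20.4%. Calls split in the same manner: 62.2%, 68.5% and 74.8% of the members called in these 3 comparisons were higher with the percentile, and 45.7%, 48.1% and 52.8% with the array median. Over all genes, calls with the percentile were 7423 higher and 5178 lower, 8124 and 5105, and 7384 and 4923 in that order. With the array median, 29.2% of members were higher and 26.1% lower in ES cells than in MEF, beside 25.7% and 32.8% of all genes. The 3 comparisons share the MEF array.

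**Figure D1:**
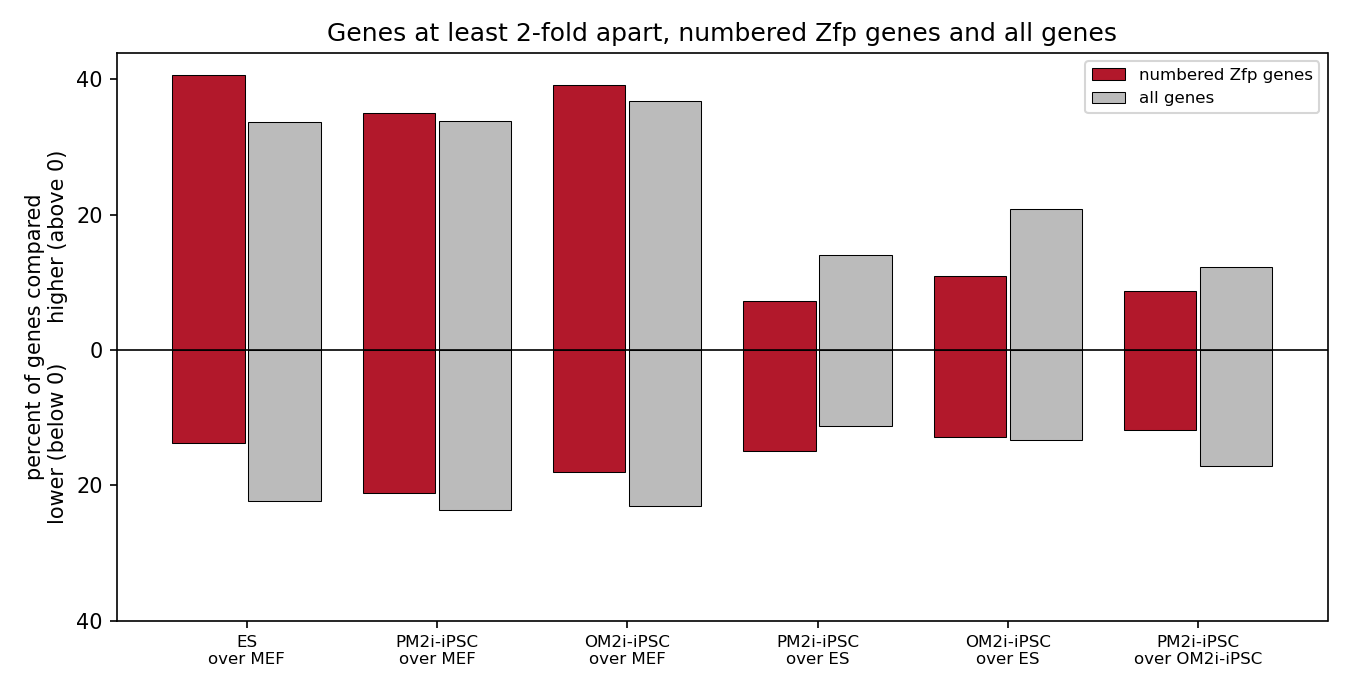
Percent of genes compared that were at least 2-fold higher (above 0) or lower (below 0) in each of 6 comparisons, for numbered Zfp genes (red) and all genes (grey). The 40.7% of members higher in ES cells than in MEF stands beside 33.7% of all genes, and the majority of higher calls in the 2 iPSC comparisons with MEF is lost after scaling to the array median.

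Relative to ES cells fewer members than genes at large were higher in either iPSC preparation. In PM2i-iPSC 16 of 221 members (7.24%) were at least 2-fold higher than in ES cells, beside 14.1% of all genes, and 33 (14.9%) were lower, beside 11.3%. In OM2i-iPSC 24 of 219 (11%) were higher, beside 20.9%, and 28 (12.8%) were lower, beside 13.3%. The median log2 difference from ES cells was -0.20 in PM2i-iPSC, beside -0.04 for all genes, and -0.17 in OM2i-iPSC, beside 0.06, and both member medians stayed below 0 with every scaling tried. Between the preparations, 19 of 218 members (8.72%) were higher in PM2i-iPSC than in OM2i-iPSC, beside 12.3% of all genes, and 26 (11.9%) were lower, beside 17.2%.

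The middle 50% of member differences lay between -0.48 and 1.89 for ES over MEF, beside -0.94 and 1.74 for all genes. For PM2i-iPSC over ES it lay between -0.74 and 0.24, beside -0.55 and 0.57 for all genes. Numbered Zbtb genes, zinc finger genes with a BTB domain and a name of the same form, were compared for scale. In ES cells 9 of 24 Zbtb genes exceeded MEF by 2-fold or more and 8 were below it by as much, with a median of 0.47. The higher share, 37.5%, was near that of the Zfp genes, and the lower share, 33.3%, was above it, over only 24 genes.

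**Figure D2:**
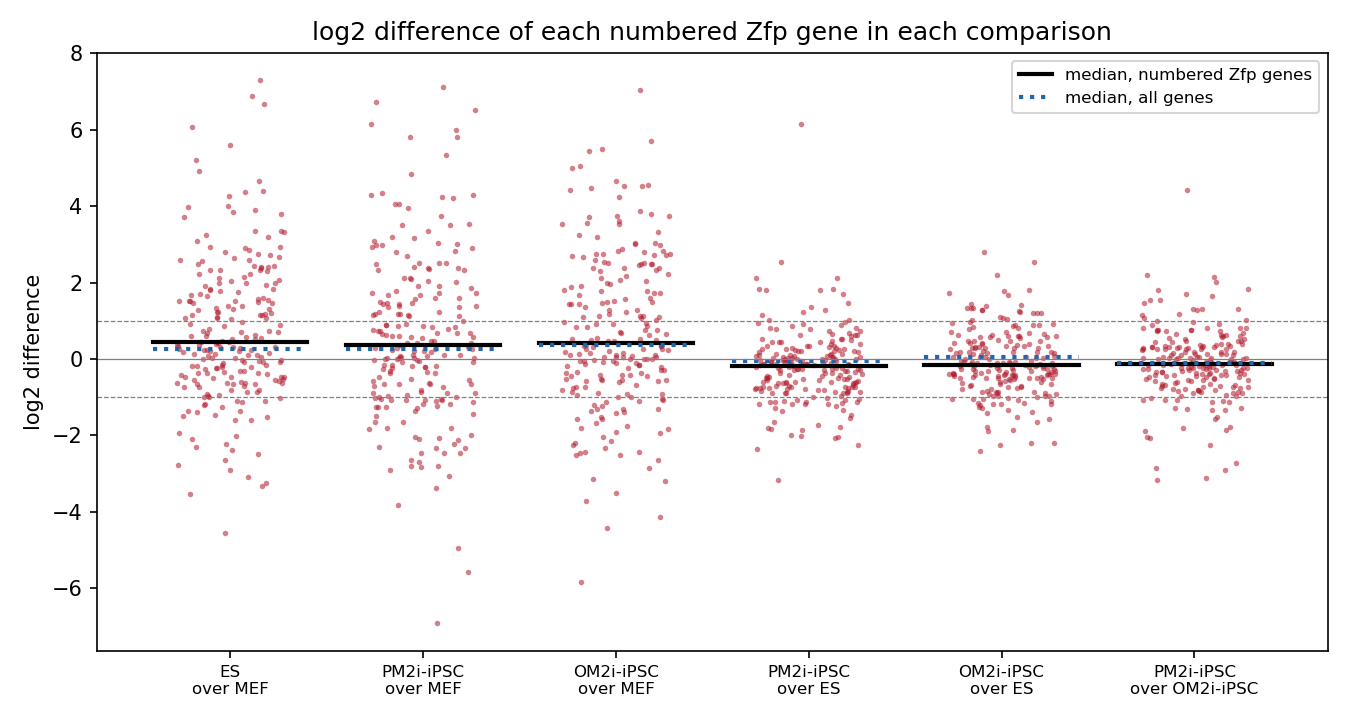
The log2 difference of each numbered Zfp gene (1 red point per gene, spread sideways at random) in 6 comparisons, with the median of the members (black line) and of all genes (dotted blue line). Dashed lines mark 2-fold, differences at a detection limit are drawn at their bound, and member medians of 0.38 to 0.44 against MEF turned negative after scaling to the array median.

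On all 3 of PM2i-iPSC, OM2i-iPSC and ES arrays, 64 of 224 members (28.6%) were at least 2-fold higher than in MEF, beside 22.7% of all genes, and 24 were at least 2-fold lower, beside 16.3%. The gene with the widest agreeing difference was Zfp206, now Zscan10, a transcription factor of the pluripotency network in ES cells. Its levels were 1.21 in PM2i-iPSC, 2.08 in OM2i-iPSC and 2.35 in ES cells, against -4.95 in MEF. All 3 pluripotent arrays stood far above MEF, by 71.6-fold, 131-fold and 157-fold in that order, while PM2i-iPSC was 2.2-fold below ES cells. Zfp42, also called Rex1 and outside the set by its rule, had levels of 2.23, 1.75 and 2.65 on the same arrays and -4.25 in MEF.

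Zfp423, a regulator of preadipocyte commitment that also works with BMP-activated Smads, had levels of 0.08 in PM2i-iPSC, -0.74 in OM2i-iPSC and 0.23 in ES cells, against -6.45 in MEF. The ES value was 102-fold above MEF, a log2 difference of 6.67. The MEF level lay below the detection limits of the other arrays. With values raised to the highest of these limits the difference was 4.81. The second Zfp423 probe gave smaller log2 differences from MEF of 2.14, 2.54 and 2.31 in the same order, so the direction held on both probes and the size did not. Zfp459, listed here with KRAB silencers, reached -0.51 in PM2i-iPSC, -1.50 in OM2i-iPSC and 0.37 in ES cells, against -6.50 in MEF. Its log2 difference between ES cells and MEF was 6.87, and 4.96 with values raised to the highest detection limit. Both iPSC preparations lay between MEF and ES cells for this gene, and OM2i-iPSC was 3.68-fold below ES cells. Zfp566, a gene of a chromosome 7 cluster, ran the other way, with 1.19 in PM2i-iPSC, 0.89 in OM2i-iPSC and 0.05 in ES cells, against -4.62 in MEF.

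Zfp57, which keeps DNA methylation at imprinting control regions together with Trim28, was at 3.55 in PM2i-iPSC, 3.07 in OM2i-iPSC and 3.86 in ES cells, against 0.02 in MEF. The 3 pluripotent arrays lay within 1.73-fold of each other and 8.27-fold to 14.3-fold above MEF. Zfp518, now Zfp518a, had 0.86, 0.27 and 0.00 on the PM2i-iPSC, OM2i-iPSC and ES arrays, against -3.35 in MEF, and its second probe differed by 2.97 to 3.34 in the same direction. Zfp509, now the BTB gene Zbtb49, was 16.8-fold, 21.5-fold and 15.6-fold above MEF on the PM2i-iPSC, OM2i-iPSC and ES arrays. Zfp94, Zfp31 (now Zscan20) and Zfp69 were not well above background in MEF. In ES cells Zfp94 was at least 36.9-fold above MEF, Zfp31 at least 30.5-fold and Zfp69, a diabetes susceptibility gene in mice, at least 21.2-fold. These folds use the lower detection limit of the MEF array. With values raised to the highest limit, the log2 differences between ES cells and MEF were 2.94, 2.67 and 2.15 in that order, and 2.37 for Zfp509.

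**Figure D3:**
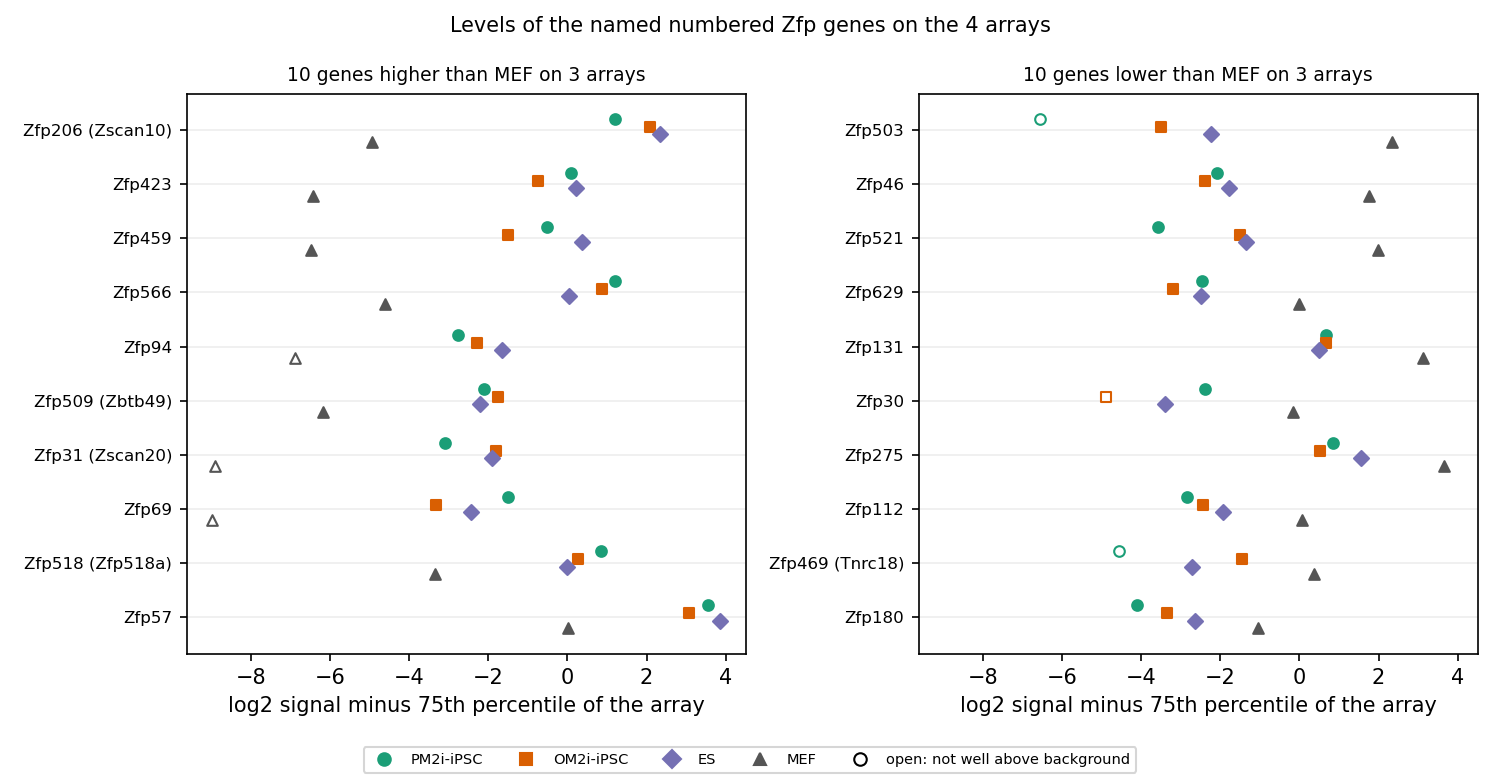
Levels (log2 signal, with the 75th percentile of each array at 0) on the PM2i-iPSC, OM2i-iPSC, ES and MEF arrays of 10 members higher and 10 lower than MEF on the other 3 arrays. Each symbol is 1 array, and open symbols were not well above background. MEF stands apart from the other 3 arrays in every row, for example at -4.95 for Zfp206 and 2.33 for Zfp503.

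The first 30 bases of the 60-base probes behind the leading genes are shown, 5′ to 3′, because each value rests on 1 such oligo. Coordinates of the whole probe are those of the MEF file, build mm7, and whether a probe lies in an exon or a UTR was not analysed here.
Zfp206 (Zscan10, chr17:21790814-21790873, plus strand): ttcgacctcccccacagtttacctcttccc
Zfp423 (chr8:86252638-86252697, minus strand): agctagtgtgcttttagagttttcgccgca
Zfp459 (chr13:64898712-64898771, minus strand): actattgatagggatcctaaaagtgatctc
Zfp57 (chr17:35161850-35161909, plus strand): gctatcttcatgaacccgtggtgctgggaa
Zfp503 (chr14:19642710-19642769, minus strand): taactatttttaatttttaagtccacccgc
Zfp46 (chr4:135672209-135672268, plus strand): tcaaccatcctagtgtcttgtctatagctg
The last 2 belong to genes that were lower than in MEF.

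Because the fingers and their linkers are alike between members, the probes were searched for the DNA of the linker, ACNGGNGANAANCC with N for any base. It encodes the threonine, glycine, glutamate, lysine and proline of the conserved stretch. It occurred in 10 of 457 member probes (2.19%) and in 24 of 40558 other probes (0.0592%), and on the opposite strand in none of either. Most member probes therefore lay outside the linker. The probes below carry it, shown in capitals, in genes that were higher on the pluripotent arrays.
Zfp248 (chr6:118454592-118454651, minus strand): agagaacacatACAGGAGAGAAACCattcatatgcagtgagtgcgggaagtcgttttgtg
Zfp74 (chr7:26877456-26877515, minus strand): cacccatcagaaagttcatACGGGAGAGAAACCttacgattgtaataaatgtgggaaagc
Zfp53 (chr17:19688083-19688142, plus strand): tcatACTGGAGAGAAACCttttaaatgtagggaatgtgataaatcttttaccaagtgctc
Zfp51 (chr17:19644483-19644542, plus strand): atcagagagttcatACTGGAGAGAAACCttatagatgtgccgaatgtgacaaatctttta
The Zfp51 and Zfp53 probes were the only pair of genes in the set to share a run of 20 bases or more. Zfp53 was at 0.56 in PM2i-iPSC, 1.52 in OM2i-iPSC and 1.18 in ES cells, against -0.81 in MEF, and Zfp51 at 1.55, 2.42 and 2.27, against 0.99. Their signals cannot be assigned to 1 gene with certainty. Zfp248 stood at 2.02 in PM2i-iPSC, 2.35 in OM2i-iPSC and 2.85 in ES cells, against -0.36 in MEF.

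Among members lower than in MEF, Zfp503 led. It is a transcriptional repressor of limb and brain development, and its level was below the detection limit in PM2i-iPSC, -3.49 in OM2i-iPSC and -2.24 in ES cells, against 2.33 in MEF. It was lower than in MEF by at least 121-fold in PM2i-iPSC, 56.7-fold in OM2i-iPSC and 23.7-fold in ES cells, so that both preparations lay beyond ES cells. Zfp46 had levels of -2.08 in PM2i-iPSC, -2.38 in OM2i-iPSC and -1.78 in ES cells, against 1.75 in MEF, with the 3 pluripotent arrays within 1.52-fold of each other. Zfp131, a BTB zinc finger gene, was likewise even, at 0.66, 0.67 and 0.48 in that order, against 3.13 in MEF. Zfp521, which opposes Ebf1 in bone and fat precursors, was at -3.59 in PM2i-iPSC, -1.52 in OM2i-iPSC and -1.34 in ES cells, against 1.99 in MEF. PM2i-iPSC alone lay 4.75-fold below ES cells for Zfp521, where OM2i-iPSC lay within 1.13-fold.

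Of the other genes in the lower group, Zfp629 was 5.53-fold, 9.18-fold and 5.6-fold below MEF in PM2i-iPSC, OM2i-iPSC and ES cells. Zfp275 was 6.97-fold, 8.81-fold and 4.25-fold below MEF on the same arrays. Zfp112 and Zfp180, neighbours on chromosome 7, were 4.05-fold and 3.02-fold below MEF in ES cells. The second Zfp180 probe was not well above background on any array, and averaging both probes turned the ES value of Zfp180 to a log2 difference of 0.085. The gene name Zfp469 in the file belongs, by its accession, to Tnrc18 in RefSeq, and this probe was below MEF by at least 30.6-fold in PM2i-iPSC, 3.52-fold in OM2i-iPSC and 8.54-fold in ES cells.

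Known roles of the members were set beside their values in 6 lists, written with earlier results of these data known. Of 9 pluripotency and early embryo genes compared, 6 were at least 2-fold higher in ES cells than in MEF and 0 lower. Of all genes 33.7% were higher and 22.4% lower. The median log2 difference was 2.00 for these 9, beside 0.27 for all genes. In PM2i-iPSC 5 of these 9 were higher and 1 lower, and in OM2i-iPSC 6 and 0. Apart from Zfp206 and Zfp57, they included Zfp296, a factor of germ and ES cells, at 1.69 in PM2i-iPSC, 1.44 in OM2i-iPSC and 1.67 in ES cells, against -0.33 in MEF. The pluripotent arrays lay within 1 log2 unit of each other and all stood above MEF. Zfp143, an activator of small nuclear RNA genes and of many promoters, was at 1.17 in PM2i-iPSC, -0.66 in OM2i-iPSC and -0.67 in ES cells, against -3.16 in MEF. Zfp281, a partner of Nanog, did not differ 2-fold, with 3.30, 3.25 and 3.77 on the 3 pluripotent arrays and 3.85 in MEF. Zfp553 was 4.1-fold higher in ES cells than in MEF on its brightest probe, and a weaker probe differed by -1.97 in the opposite direction.

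Of 14 listed KRAB silencers of repeats and imprinted loci, 5 were on the array, and 4 had a fold because Zfp13 was saturated on all 4 arrays. In ES cells 3 were higher than in MEF and 1 lower, and the counts were the same in both iPSC preparations. Only 4 genes stand behind these counts, beside 33.7% of all genes higher and 22.4% lower in ES cells. Zfp445, which acts beside Zfp57 at imprinted loci, was at 1.04 in PM2i-iPSC, 1.02 in OM2i-iPSC and 1.33 in ES cells, against -2.0 in MEF. A second Zfp445 probe gave differences from MEF of 3.73, 3.59 and 3.19 in that order. Zfp30 went the other way, at -2.38 in PM2i-iPSC and -3.41 in ES cells, not well above background in OM2i-iPSC, and at -0.16 in MEF. Genes of the machinery that KRAB domains recruit were listed as well: of 16 compared, 6 were higher and 0 lower in ES cells than in MEF, with a median of 0.75. These 6 of 16 stand beside 33.7% of all genes higher and 22.4% lower. In PM2i-iPSC 6 of 17 compared were higher and 0 lower, and in OM2i-iPSC 6 of 16 were higher and 2 lower. Trim28 itself was at 2.70 in PM2i-iPSC, 3.11 in OM2i-iPSC and 3.03 in ES cells, against 1.01 in MEF. Setdb1, the H3K9 methyltransferase, was at -4.02 in PM2i-iPSC, -2.50 in OM2i-iPSC and -2.11 in ES cells, against -4.74 in MEF, so PM2i-iPSC stood nearer to MEF than to ES cells.

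Mesenchymal, adipocyte and bone regulators were mixed. Without Zfp469, whose probe belongs to another gene, 9 were compared. Of these 4 were lower and 2 higher in ES cells than in MEF, with a median of -0.74, beside 22.4% lower and 33.7% higher of all genes. The same counts were found in PM2i-iPSC and OM2i-iPSC, with medians of -1.08 and -1.33. With Zfp469 the lower count was 5 on each array and the medians were -2.34 in PM2i-iPSC, -1.82 in OM2i-iPSC and -1.10 in ES cells. The higher ones were Zfp423 and Zfp9, and the lower ones were Zfp503, Zfp521, Zfp637 and Zfp385, the probes of Zfp9 and Zfp385 being at odds. Zfp637 was at -2.45 in PM2i-iPSC, -3.52 in OM2i-iPSC and -1.27 in ES cells, against 0.20 in MEF. Zfp516, a regulator of brown fat, stayed within 2-fold, with 3.16, 2.18 and 3.14 on the 3 pluripotent arrays and 2.93 in MEF.

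Of 6 neural and glial regulators compared, 3 were higher and 2 lower in ES cells than in MEF, with a median of 0.62, beside 33.7% higher and 22.4% lower of all genes. In OM2i-iPSC the counts were the same, with a median of 0.80. In PM2i-iPSC 1 of 5 compared was higher and 2 were lower, with a median of -0.63. That median covers the 4 genes with a fold, and those of ES cells and OM2i-iPSC cover 6, with Zfp365 and Zfp536 added. The signs of these medians therefore cannot be compared between the arrays. Zfp238, now Zbtb18 and a repressor in cortical neurons, was at 1.46 in PM2i-iPSC, 1.18 in OM2i-iPSC and 1.61 in ES cells, against 3.11 in MEF. Zfp335, required in neural progenitors, was saturated on the 3 pluripotent arrays and at least 6.06-fold higher in ES cells than in MEF. Zfp536, a brake on neuron differentiation, was at -3.29 in OM2i-iPSC and -2.58 in ES cells and not well above background in PM2i-iPSC or MEF. The ES level of Zfp536 was at least 19.3-fold above MEF and at least 4.03-fold above PM2i-iPSC. With values raised to the highest detection limit its log2 difference between ES cells and MEF was 2.01. Zfp312, now Fezf2, was not well above background on any array.

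The members listed for RNA, ubiquitin or the spindle were mostly within 2-fold. Of 12 RNA, ubiquitin and spindle genes, 3 were higher and 1 lower in ES cells than in MEF, and 8 stayed within 2-fold. Beside these stand 33.7% of all genes higher and 22.4% lower, and 99 of the 222 members with a fold within 2-fold. In PM2i-iPSC 2 were higher and 2 lower, and in OM2i-iPSC 2 and 3. Zfp346, which binds double-stranded RNA, was at -0.08 in PM2i-iPSC, -0.36 in OM2i-iPSC and -0.96 in ES cells, against -2.43 in MEF. Zfp598, the ubiquitin ligase of collided ribosomes in human cells, was at 2.22, 1.45 and 2.35 on the same arrays and 3.30 in MEF, lower by 3.58-fold in OM2i-iPSC and by less than 2-fold in ES cells. Zfp207, a spindle assembly protein, was within 2-fold of MEF on all 3 arrays. Zfp326 was 3.57-fold higher in ES cells than in MEF on its brightest probe, and another of its probes gave -1.27, so its direction depends on the probe. Zfp259, now Zpr1, was 2.32-fold lower in ES cells than in MEF, while its second probe gave 1.10. Of 6 germ line genes, 3 were higher and 0 lower in ES cells than in MEF, where 33.7% of all genes were higher. In PM2i-iPSC 2 were higher and 0 lower, and in OM2i-iPSC 2 were higher and 1 lower. Zfp318, a testis gene that also shapes IgM and IgD transcripts in B cells, was at 1.19 in PM2i-iPSC, 1.0 in OM2i-iPSC and 1.19 in ES cells, against -1.74 in MEF.

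Where ES cells and MEF differed at least 4-fold, most members in both preparations were nearer to ES cells than to MEF, as were most genes at large. Nearer includes values part of the way to the ES level and values beyond it. There were 56 such members after raising values to the highest detection limit, 42 higher and 14 lower in ES cells. PM2i-iPSC was nearer to ES cells than to MEF for 53 of them (94.6%), beside 90.3% of all genes, and OM2i-iPSC for 52 (92.9%), beside 85.5%. Zfp101 was the only member nearer to MEF in both, with -3.36 in PM2i-iPSC and -2.54 in OM2i-iPSC, against -1.50 in ES cells and -3.56 in MEF.

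Departures from ES cells shared by both preparations were few. At least 2-fold higher in both were 8 of 219 members (3.65%), beside 6.42% of all genes, and 10 (4.57%) were lower in both, beside 5.47%. Zfp697 was at -1.63 in PM2i-iPSC and -1.65 in OM2i-iPSC, against -3.44 in ES cells and -3.10 in MEF. Both preparations stood together above both other arrays. Zfp711, an X-linked gene whose protein binds the histone demethylase PHF8 in human cells, was at -3.67 in PM2i-iPSC and -2.60 in OM2i-iPSC, while ES cells and MEF were under the detection limit. It exceeded ES cells by at least 2.76-fold and 5.79-fold. Zfp639 was 2.03-fold and 2.14-fold above ES cells in PM2i-iPSC and OM2i-iPSC. Zfp36, tristetraprolin, which drives decay of AU-rich mRNAs, was 1.89-fold and 2.3-fold above.

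Zfp235 lay furthest below ES cells in both, at -2.75 in PM2i-iPSC and -2.91 in OM2i-iPSC, against -0.71 in ES cells and -0.07 in MEF. For this gene ES cells were within 2-fold of MEF, on the lower side, and both preparations were lower than either. Zfp68 showed the same order, with -1.81 and -2.06, against -0.28 in ES cells and 0.19 in MEF. Zfp690, now Zscan29, was above background in ES cells and MEF and not in either preparation, below the ES level by at least 3.11-fold. Zfp336, now Gzf1, was 2.42-fold and 2.2-fold below ES cells, and its second probe was lower as well, by 2.63 and 1.13 on the log2 scale, while the 2 probes differed widely against MEF, at -0.54 and 6.80 for ES cells.

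PM2i-iPSC and OM2i-iPSC stood furthest apart for Zfp192, now Zkscan8, a gene with a SCAN and a KRAB domain. Its level was 1.25 in PM2i-iPSC, against -3.16 in OM2i-iPSC, not well above background in ES cells, and -5.87 in MEF. PM2i-iPSC exceeded OM2i-iPSC by 21.3-fold and ES cells by at least 70.8-fold. Of 3 Zfp192 probes the other two were not well above background on any array, so the value rests on 1 spot per array. Zfp606 was at -2.42 in PM2i-iPSC and -2.15 in ES cells, and was not well above background in OM2i-iPSC. Zfp30 and Zfp143 were higher in PM2i-iPSC than in OM2i-iPSC as well, by at least 4.61-fold and by 3.56-fold.

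Among members whose probes gave 1 direction, those furthest higher in OM2i-iPSC than in PM2i-iPSC were Zfp469, Zfp647, Zfp707 and Zfp93. The brightest probe of Zfp260 lay further apart still, with a log2 difference of -3.18 at the detection limit, and its other probe was at odds with it. Zfp707 was at -3.46 in PM2i-iPSC, against -0.62 in OM2i-iPSC, with -1.40 in ES cells and -3.09 in MEF. PM2i-iPSC stood at the MEF end of this range and OM2i-iPSC above ES cells. Zfp647 was not well above background in PM2i-iPSC, against -1.67 in OM2i-iPSC, -1.43 in ES cells and -1.75 in MEF, which put PM2i-iPSC alone below the other 3 arrays, by at least 7.56-fold relative to OM2i-iPSC. Zfp93, a chromosome 7 gene, was likewise not well above background in PM2i-iPSC, against -1.79 in OM2i-iPSC.

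**Figure D4:**
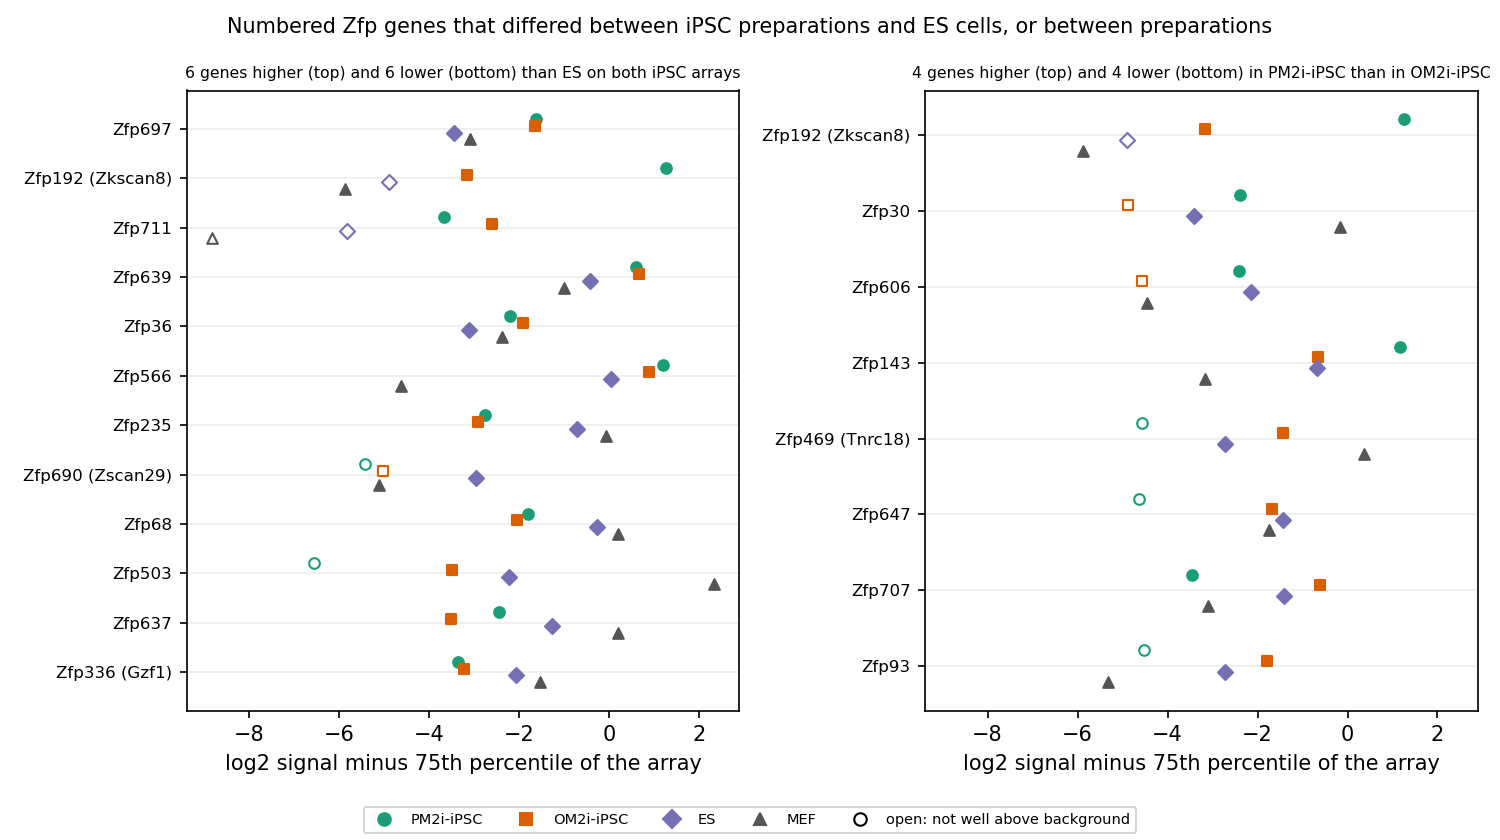
Levels (log2 signal, with the 75th percentile of each array at 0) on the 4 arrays, for 12 members that differed from ES cells in the same direction in both preparations (left) and, for PM2i-iPSC against OM2i-iPSC, the 4 furthest higher and 4 furthest lower (right), all after leaving out members whose probes disagreed, such as Zfp260 and Zfp169. Each symbol is 1 array, and open symbols were not well above background. Zfp192 stands at 1.25 in PM2i-iPSC, against -3.16 in OM2i-iPSC.

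Probes of 1 gene often disagreed. In ES over MEF, 100 members had at least 2 probes compared, and the median SD between probes of a gene was 1.12 on the log2 scale. Of 57 members at least 2-fold apart with another probe, 37 had all other probes in the same direction and 11 had a probe at least 2-fold in the opposite one. For PM2i-iPSC over MEF these counts were 26 and 19 of 55, and for OM2i-iPSC over MEF 33 and 12 of 56. Zfp319 was the widest case: its brightest probe was 67.2-fold higher in ES cells than in MEF, and its other probes gave log2 differences of -5.72 and -3.46. Directions also depended on the probe for Zfp533, Zfp324, Zfp592, Zfp236, Zfp191 and Zfp385 relative to MEF, for Zfp9, Zfp397, Zfp668, Zfp7, Zfp330 and Zfp560 relative to ES cells, and for Zfp169 and Zfp260 between the preparations. Zfp9 was 4.99-fold higher in ES cells than in MEF on its brightest probe and -3.84 on the log2 scale on another.

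Zfp genes sit in clusters that arose by duplication, and neighbours in a cluster did not all differ in 1 direction. Chromosome 7 held 59 of the 238 members by the file's coordinates, and of 55 compared in ES cells 29 exceeded MEF by 2-fold or more and 6 were below it by as much, with a median of 1.39. On chromosome 17 these were 11 and 0 of 19, with a median of 1.37. Chromosomes 7 and 17 held the most members, and other chromosomes differed from them. On chromosome 18 the counts were 1 higher and 5 lower of 11, with a median of 0.11. The median was -0.21 on chromosomes 6 and 9 and 1.05 on chromosomes 2 and 5. Genes at large were not counted by chromosome. Of all genes 33.7% were higher and 22.4% lower in this comparison. In PM2i-iPSC the median was 0.94 on chromosome 7 and 0.70 on chromosome 17. In OM2i-iPSC it was 0.97 on chromosome 7 and 1.22 on chromosome 17. Members no more than 500 kb apart formed 11 clusters of at least 4 genes.

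The largest cluster, chr7:20895154-21303187 in mm7, held 11 members. Its first 3, Zfp180, Zfp112 and Zfp235, were lower than in MEF on all 3 arrays, by 1.60, 2.02 and 0.64 on the log2 scale in ES cells. The ES value of Zfp235 was within 2-fold of MEF, and that of Zfp180 did not hold when its probes were averaged, as given above. The next ones, Zfp114, Zfp111 and Zfp108, were higher by 1.48, 1.78 and 2.33 in ES cells. Zfp61 lay among higher genes at -0.07 in ES cells, and at -1.13 in PM2i-iPSC and -0.90 in OM2i-iPSC. In a second cluster, chr7:26720941-27105593, Zfp84 and Zfp30 were lower and 6 of 10 genes in ES cells exceeded MEF by 2-fold or more, among them Zfp82 at 3.71 and Zfp566 at 4.67. A cluster of 4 genes at chr7:4497881-4630619 had no member at least 2-fold apart on any array relative to MEF. The 5 members at chr6:47829748-48397852 had 2 lower and 0 higher in ES cells, and the same counts in PM2i-iPSC and OM2i-iPSC.

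**Figure D5:**
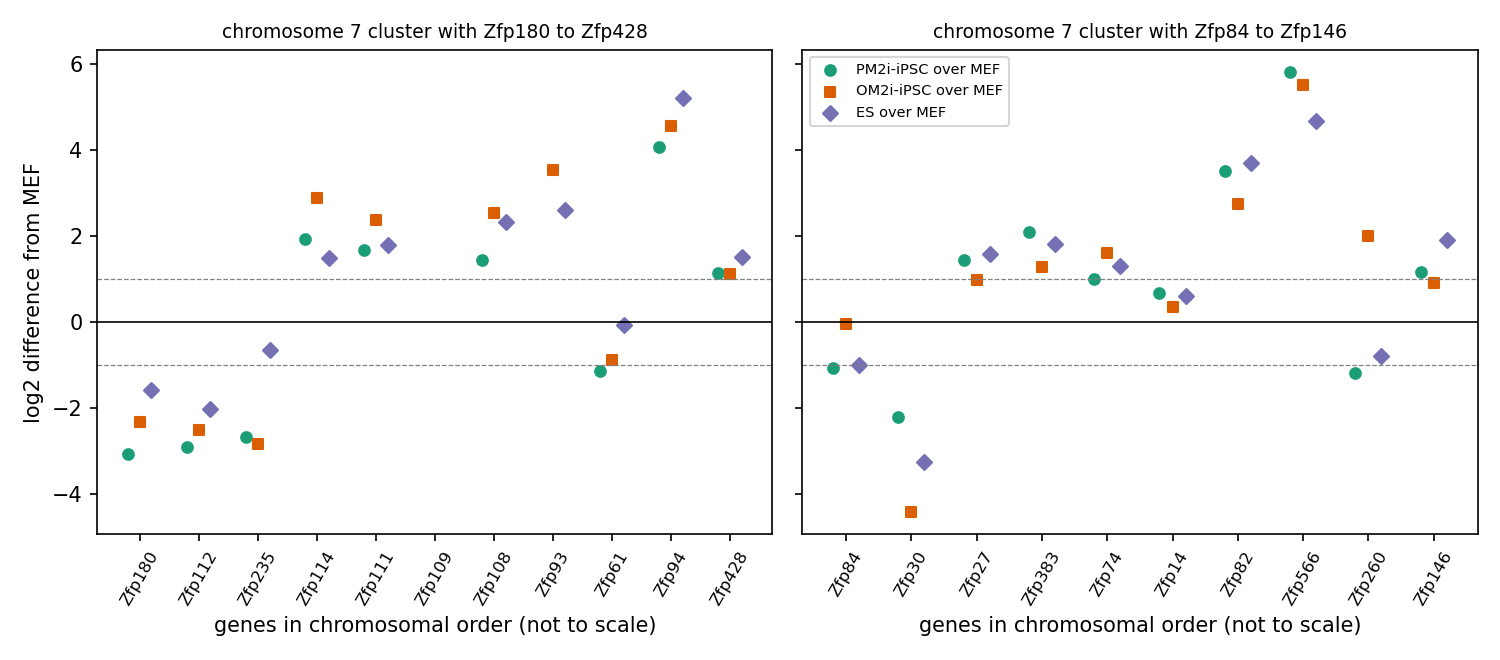
The log2 difference from MEF of PM2i-iPSC, OM2i-iPSC and ES cells for each member of 2 chromosome 7 clusters, in chromosomal order and not to scale. Dashed lines mark 2-fold and differences at a detection limit are drawn at their bound. Zfp180, Zfp112 and Zfp235 lie below 0 beside Zfp114 and Zfp111 above it, and Zfp109, above background on no array, has no point.

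Promoter windows of RefSeq (GRCm38.p6), the 250 bases before each start, were matched for 188 members with 245 windows. The members' windows were richer in CpG than promoters at large, with a median of 13 CpG beside 6 over 32851 windows of 27025 genes. The GC box GGGCGG, searched on both strands, was in 45.3% of member windows and 32.7% of all windows. The octamer ATGCAAAT was in 2.45%, beside 1.60%, and the nuclear receptor half-site TCAAGGTCA in 0.408%, beside 0.387%. Members at least 2-fold higher than MEF on all 3 arrays had a median of 13 CpG over 67 windows, and those lower had 15 over 32. The windows of 2 members from the higher group are printed to show one poor and one rich in CpG, Zscan10 with 3 CpG and no GC box and Zfp318 with 39 CpG and 3 GC boxes in capitals.
Zscan10 (chr17:23600576-23600825, plus strand): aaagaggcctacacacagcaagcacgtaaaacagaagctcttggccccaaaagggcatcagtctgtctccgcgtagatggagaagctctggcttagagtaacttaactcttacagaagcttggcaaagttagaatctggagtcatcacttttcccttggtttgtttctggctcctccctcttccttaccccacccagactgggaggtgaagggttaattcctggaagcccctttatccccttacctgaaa
Zfp318 (chr17:46383516-46383765, plus strand): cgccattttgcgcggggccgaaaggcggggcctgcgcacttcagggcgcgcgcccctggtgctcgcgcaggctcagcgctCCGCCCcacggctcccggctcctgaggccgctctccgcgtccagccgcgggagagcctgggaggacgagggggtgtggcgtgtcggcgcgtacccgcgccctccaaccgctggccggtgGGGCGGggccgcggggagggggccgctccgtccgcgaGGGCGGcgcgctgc
A match of these letters is a description of the window and not a bound site.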

How the data were processed

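The deposited Agilent files give the intensity of each spot. Per the file headers, Feature Extraction 10.7.3.1 read the PM2i-iPSC, OM2i-iPSC and ES arrays and 9.5.3.1 the MEF array. The deposited series table holds the same intensity rounded and served as an alternative. Affymetrix log2 values were not used, since no table given pairs their probe sets with genes. Protein features of the members were planned and are not analysed here.

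Spots that are controls or carry an outlier flag were dropped, signals were put on a log2 scale with the 75th percentile of each array at 0, and a gene was its brightest probe over the 4 arrays. With 1 array per group no test was possible, and the number of arrays limits the precision. The reliability of the calls at 2-fold was not tested. Of the member probes, 307 were named by accession, 121 by symbol, 28 by an older symbol and 1 by none, and 36 genes carry another symbol now. Python 3.11.15, pandas 2.3.3, R 4.3.3 and limma 3.58.1 were used.

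The genes named are the 10 highest and 10 lowest relative to MEF on 3 arrays, ranked by the smallest difference with probes in one direction, the 6 per direction relative to ES, the 4 per direction between preparations, the members nearer to MEF in both preparations, role list members with the widest differences, and genes whose probes disagree. The condition on probes could act only where a gene had several probes above background, and 105 members had 1 probe. Zfp207, Zfp296, Zfp312, members of the clusters, and probes with the linker were chosen after their values were seen. Members and lists were chosen with earlier results of these data known. Alternatives were scaling to the array median, quantile normalization, the deposited table, normexp background correction with an offset of 50 on median signals, the mean of all probes, detection on all 4 arrays, no detection filter and, added after seeing the data, each probe by itself and the mesenchymal list without Zfp469. Also chosen after seeing the data were limiting the SD between spots to spots well above background, counting members that differed alike on several arrays or lay on opposite sides of ES cells, and splitting promoters by direction relative to MEF.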

Additional observations from a re-analysis of the deposited data

Results flagged for a closer look

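Of 218 members compared between the preparations, 27 (12.4%) were at least 2-fold apart and lay on opposite sides of ES cells, beside 14.1% of all genes. Of these, 4 were at least 2-fold from ES cells on both sides (1.83%, beside 1.21% of all genes), namely Zfp30, Zfp352, Zfp418 and Zfp469. Zfp352 and Zfp418 were named after their values were seen, with log2 differences from ES cells of -1.17 and -1.03 in PM2i-iPSC, the second at the detection limit, and 1.07 and 1.01 in OM2i-iPSC. Among the 8 members named as furthest apart between the preparations, 4 lay on opposite sides of ES cells, and the difference was not tested. Choosing them by the width of that difference itself favours opposite sides, so this count is no separate result. Zfp30 differed from ES cells by 1.03 in PM2i-iPSC and by -1.18, at the detection limit, in OM2i-iPSC on the log2 scale. Zfp469 differed by -1.84 in PM2i-iPSC, at the detection limit, and by 1.28 in OM2i-iPSC. Zfp707 differed by -2.06 in PM2i-iPSC and by 0.79 in OM2i-iPSC. Zfp93 differed by -1.80 in PM2i-iPSC, at the detection limit, and by 0.93 in OM2i-iPSC. Each rests on 1 spot per array, and both preparations are set against the same ES array.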

How the results depend on the processing

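No paired analysis was possible because each group has 1 array. Scaling to the array median reversed the member medians against MEF, to -0.12 for ES cells, -0.31 for PM2i-iPSC and -0.40 for OM2i-iPSC. It raised the members lower than MEF to 59 in ES cells (26.1%, beside 32.8% of all genes) and 70 in OM2i-iPSC (30.8%, beside 35.6%). Higher calls were then 32.8% of calls for OM2i-iPSC over ES (46.2% with the percentile) and 53.5% for PM2i-iPSC over OM2i-iPSC (42.2%). Without the detection filter the members fell below all genes, by 0.15 in ES, 0.35 in PM2i-iPSC and 0.48 in OM2i-iPSC relative to MEF. Each probe by itself, with more items counted, gave 165 higher and 50 lower for ES over MEF (41.8% and 12.7%, beside 34.3% and 22.4% of all probes). For PM2i-iPSC over MEF these were 142 and 75 (36.2% and 19.1%, beside 34.0% and 23.5%). For OM2i-iPSC over MEF they were 152 and 65 (38.6% and 16.5%, beside 36.1% and 23.3%). PM2i-iPSC over ES gave 38 and 64 (10.3% and 17.4%, beside 14.8% and 12.6%). OM2i-iPSC over ES gave 49 and 60 (13.2% and 16.2%, beside 20.6% and 15.1%). PM2i-iPSC over OM2i-iPSC gave 38 and 50 (10.6% and 14.0%, beside 14.1% and 17.4%). Detection on all 4 arrays, which leaves fewer genes, gave 10 members higher in PM2i-iPSC than in ES (5.21%, beside 10.2% of all genes). It gave 12 higher and 15 lower in PM2i-iPSC than in OM2i-iPSC (6.25% and 7.81%, beside 9.95% and 13.8%). The mean of all probes gave 15 higher in OM2i-iPSC than in ES (6.82%, beside 19.0% of all genes). It turned Zfp180 in ES over MEF to 0.085, since the second Zfp180 probe was not above background. Of 92 differences of named genes, 92 kept their direction with the deposited table, the array median, quantiles, normexp and no filter. Of 90 at least 2-fold, 88 stayed so with the array median and 86 with normexp. With the mean of all probes 90 of 91 kept their direction and 78 of 89 stayed at least 2-fold, the widest move being 5.03 on the log2 scale. Signal over background limits the folds given as bounds.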
